A study of Mus musculus with 12 samples.

Results

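*Uap1l1*, *Patl2*, *Lrrc75a* and *Gm48377* were the 4 genes, of 54146 listed in each library, chosen by their measured values: they had the highest Day 4 log2 fold changes among genes called higher after 4-OHT on both days. A gene was called where the DESeq2 adjusted p was below 0.05 and its mean normalised count, the read count scaled for sequencing depth, was above 100. Of the 11345 genes above that mean on both days, 403 were called higher on both days with libraries of the 2 treatments that did not overlap on either day, which is 3.55%. The Day 2 and Day 4 values of the 4 genes therefore chose them and are given as a description, without p-values. None of the 4 was on the study's list of genes with a PRDM10 ChIP-seq site. Fold changes in the comparisons by day are those of the libraries labelled OHT over those labelled EtOH.

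The 12 libraries were made from total RNA of C57BL/6 mouse embryonic stem cells (mESCs) that carry the alleles *Prdm10*F/F and *Rosa26*-CreERT2 and grow in serum and LIF. PRDM10 is a zinc finger transcription factor. CreERT2 is a recombinase that enters the nucleus when 4-hydroxytamoxifen (4-OHT) binds it, here from the ubiquitously active *Rosa26* locus, and *Prdm10*F/F is the floxed gene that it cuts. Cells received 50 nM 4-OHT for 24 h (OHT, genotype label *Prdm10*del/del) or an equal volume of ethanol (EtOH, genotype label *Prdm10*F/F), and were harvested at Day 2 or Day 4, with 3 libraries in each of the 4 groups. Every group carried CreERT2, and no group received 4-OHT without the floxed gene, so the effects of 4-OHT, of active Cre and of *Prdm10* deletion cannot be told apart. Nothing in the labels says that replicates were separate cultures, so the spread between libraries may be technical. In these bulk libraries a change in the share of cells that use a gene and a change in RNA per cell cannot be told apart.

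Library totals were 35017667 to 41409992 expected counts. The gene-level count of *Prdm10* itself, a gene on the list of genes with a PRDM10 site, was higher in the libraries labelled OHT. It was 767 to 911 normalised counts in the 6 EtOH libraries and 1965 to 2225 in the 6 libraries labelled OHT. The deletion removes the floxed exon and not the whole transcript, and a gene-level count does not show whether that exon was lost. The study reported checks of the recombination in such cells by genomic DNA, RNA of the floxed exon and PRDM10 protein. All 14 genes of a list of mESC markers were above the mean of 100 on both days, and their summed level in CPM (counts scaled to library size) was 4582 to 4617 with EtOH and 4609.7 to 4656 with OHT at Day 2. At Day 2, 3 of the 14 were called higher and 5 lower, where 9.17% and 10.6% of all genes tested were. The sum at Day 4 was 4405 to 4508 with EtOH and 4834 to 4941 with OHT, without overlap. On that day 8 of the 14 were called higher and 1 lower (2 without OHT replicate 3). The Day 4 shares among all genes tested were 23.5% higher and 21.7% lower. Of 36 genes that mark fibroblasts, primitive endoderm, trophectoderm or the germ layers, 28 had a mean below 100, and the highest mean among 18 genes of the 2-cell-like state was 28.4. *Cubn*, an endocytic receptor, was called higher at Day 2, *Eomes* and *Tfap2c*, trophoblast regulators that are also measured in mESCs, were called higher at Day 4, and *Nes*, an intermediate filament gene, was called lower on both days. The Day 2 calls of *Cubn* and *Nes* were each lost in 5 of the 6 fits that left out 1 library, and 1 of the 2 trophoblast calls at Day 4 in 5 of 6. Their part in the results was not tested.

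UAP1L1 is a relative of UAP1, the enzyme that joins N-acetylglucosamine phosphate to UTP in the last step of UDP-GlcNAc synthesis. UDP-GlcNAc is the sugar donor for N-glycans and for the O-GlcNAc mark on nuclear and cytoplasmic proteins. PATL2 is the germ line relative of PATL1, a scaffold of mRNA decapping in P-bodies, and is known from oocytes as an RNA-binding protein that holds maternal mRNAs untranslated. *Lrrc75a* encodes a leucine-rich repeat protein, and *Gm48377* belongs to the annotation class TEC, loci whose transcripts still await experimental evidence.

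*Uap1l1* (ENSMUSG00000026956.15) lies on the minus strand of chromosome 2, chr2:25359889-25365682 (GRCm38), and its longest of 6 annotated transcripts has 9 exons and 3349 bases. *Patl2* (ENSMUSG00000027233.4, chr2:122120108-122186189, minus strand) covers 66.1 kb with 1 transcript of 18 exons and 2434 bases. *Lrrc75a* (ENSMUSG00000046417.14, chr11:62604884-62648523, minus strand) covers 43.6 kb, and its longest of 3 transcripts has 4 exons and 1984 bases. *Gm48377* (ENSMUSG00000112523.1, chr10:106183021-106183891, plus strand) is 1 exon of 871 bases. The genes are thus on 3 chromosomes, and 3 of the 4 are on the minus strand. All had transcript GC contents above the median of the genes tested on both days (49.4%, n = 11340 genes with a transcript sequence), from 50.1% in *Patl2* to 57.9% in *Lrrc75a*, which was higher than 90.8% of those genes.

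*Patl2* starts head to head with *Terb2*, a gene of the complex that ties meiotic telomeres to the nuclear envelope, with 82 bases between the annotated starts. That stretch is shown because it lies between the starts of the closest head to head pair with a gene of the set. It is printed 5′ to 3′ on the strand of *Patl2* from the RefSeq promoter table for GRCm38.p6, with matches to CCAAT and GGGCGG on either strand in capitals.
Patl2 to Terb2, chr2:122186190-122186271: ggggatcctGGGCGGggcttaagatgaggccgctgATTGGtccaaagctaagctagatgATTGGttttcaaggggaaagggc
The stretch held 2 matches to CCAAT, the sequence bound by NF-Y, and 1 to GGGCGG, the GC box bound by SP factors. The 300-base promoter of *Patl2* (250 bases before and 50 after the start) held 2 matches to CCAAT and 3 to GGGCGG. Over all promoters of that length in the table (32851 promoters), 37.4% held CCAAT and 35.7% held GGGCGG, so both are common. The E-box CACGTG, the TATA box TATAAA and the cAMP response element TGACGTCA had no match in the 300 bases of the *Patl2* promoter and were in 7.15%, 13.6% and 1.79% of all promoters. Of the 4 genes, the promoter table matched *Patl2*.

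*Uap1l1* was 439.9, 429 and 420.1 normalised counts in the Day 2 EtOH libraries and 669, 736 and 746 in the Day 2 OHT libraries. At Day 4 it was 257, 219 and 254 with EtOH and 1194, 1316 and 1268 with OHT. Its lowest OHT library was above its highest EtOH library on both days, and all 3 Day 4 OHT libraries were above every other library. The log2 fold change was 0.74 (SE 0.09) at Day 2 and 2.37 (SE 0.09) at Day 4, or 1.67-fold and 5.17-fold. *Uap1l1* went down between the days with vehicle, by 0.82 on the log2 scale (SE 0.12), and up between them with OHT, by 0.82 (SE 0.07). The Day 4 difference thus holds a lower vehicle level as well as a higher OHT level.

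*Patl2* was 107, 136 and 104 normalised counts in the Day 2 EtOH libraries and 182, 193 and 162 in the Day 2 OHT libraries. At Day 4 it was 58.8, 70.2 and 53.6 with EtOH and 254, 314 and 276 with OHT. OHT and EtOH libraries were apart on both days, and the Day 4 EtOH libraries were the lowest of the 12. The log2 fold change was 0.63 (SE 0.17) at Day 2 and 2.21 (SE 0.18) at Day 4, or 1.55-fold and 4.61-fold. The vehicle level fell by 0.93 on the log2 scale between the days (SE 0.23) and the OHT level went up by 0.65 (SE 0.14), the same shape as in *Uap1l1*. The Day 4 EtOH mean of *Patl2*, 60.9 ± 8.45 (SD, n = 3), was under the minimum mean of 100, so the gene passed that minimum at Day 4 through its OHT libraries.

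*Lrrc75a* was 129, 131 and 127 normalised counts in the Day 2 EtOH libraries and 250.4, 272 and 253 in the Day 2 OHT libraries. At Day 4 it was 153, 191 and 169 with EtOH and 654, 634 and 691 with OHT. The treatments were apart on both days, and every OHT library of either day was above every EtOH library of either day. Its Day 2 log2 fold change, 1.00 (SE 0.15), was the highest of the 4 genes, and that at Day 4 was 1.95 (SE 0.11), or 2.01-fold and 3.85-fold. Between the days it went up with vehicle, by 0.40 (SE 0.17), and with OHT, by 1.35 (SE 0.10).

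*Gm48377* was 85.1, 102 and 98.8 normalised counts in the Day 2 EtOH libraries and 143, 158 and 169.9 in the Day 2 OHT libraries. At Day 4 it was 137, 141 and 158 with EtOH and 497, 527 and 529 with OHT. The labels did not overlap within a day, but the Day 2 OHT and Day 4 EtOH libraries did overlap, since the vehicle level also went up between the days, by 0.61 on the log2 scale (SE 0.19). The log2 fold change was 0.72 (SE 0.18) at Day 2 and 1.83 (SE 0.12) at Day 4, or 1.65-fold and 3.55-fold. The rise between the days with OHT was 1.73 (SE 0.12), the largest of the 4. The Day 2 EtOH mean, 95.3 ± 8.99 (SD, n = 3), was under 100, so the gene passed the minimum at Day 2 through its OHT libraries.

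**Figure D1:**
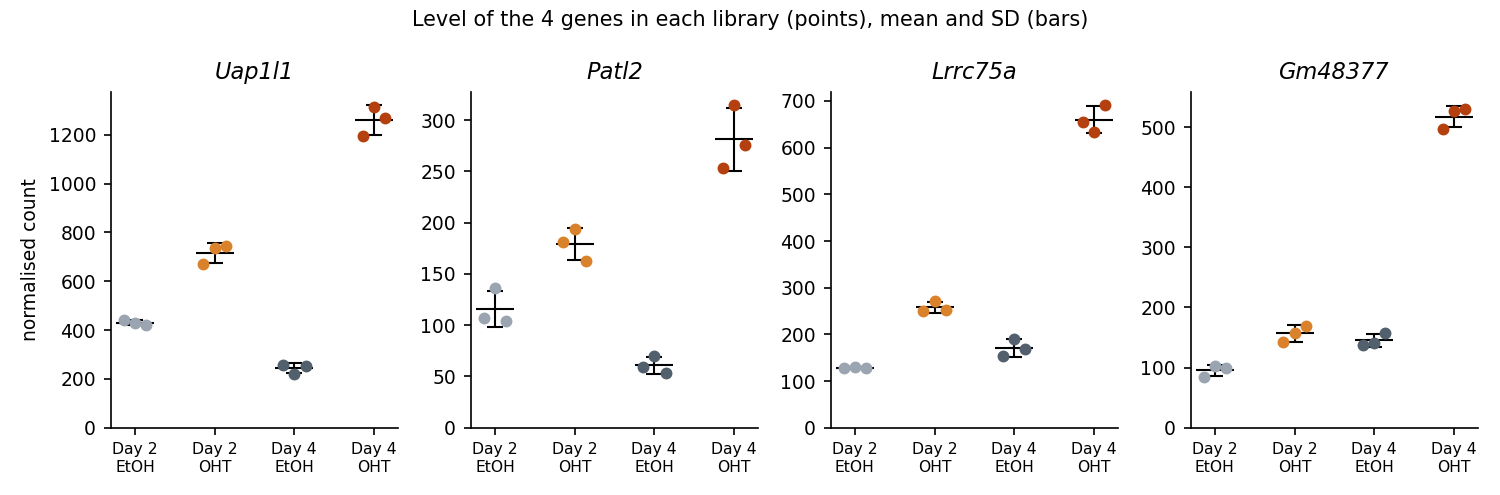
Normalised count (vertical axis, from 0) of *Uap1l1*, *Patl2*, *Lrrc75a* and *Gm48377* in each of the 12 libraries (points), with the mean and SD of the 3 libraries of a group. The OHT points lie above the EtOH points of the same day in each panel, and the Day 4 EtOH points lie below the Day 2 EtOH points in *Uap1l1* and *Patl2* and above them in *Lrrc75a* and *Gm48377*.

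Levels of different genes can be compared only per transcript length, here as TPM, a count scaled for effective length and library. In the Day 2 EtOH libraries the order of the mean TPM levels was *Uap1l1*, 4.37 ± 0.94 (SD, n = 3), *Gm48377*, 2.81 ± 0.30, *Lrrc75a*, 1.54 ± 0.07, and *Patl2*, 1.07 ± 0.16. The libraries of neighbours in this order did not overlap. In the Day 4 EtOH libraries *Gm48377* was first, at a level of 4.69 ± 0.27 TPM (SD, n = 3), and *Uap1l1* (2.20 ± 0.21) and *Lrrc75a* (2.17 ± 0.24) overlapped. In the Day 4 OHT libraries the TPM levels were 16.4 ± 0.63 (SD, n = 3) for *Gm48377*, 13.0 ± 2.24 for *Uap1l1*, 8.31 ± 0.35 for *Lrrc75a* and 2.79 ± 0.28 for *Patl2*, without overlap between neighbours. Averaged over all 12 libraries, the 4 levels were 1.56 to 7.19 TPM, below the median of the 11345 genes tested on both days, 11.3 TPM, and *Patl2* was higher than only 6.53% of them.

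The effective length of a gene, the average number of positions at which a read pair could start in the transcripts used, was nearly constant for *Patl2* and *Gm48377*, which have 1 transcript each. For *Uap1l1*, with 6 transcripts, it went from 1719 to 2696 bases among the Day 2 libraries, and the extremes were both EtOH libraries. An exact two-sided permutation test of OHT against EtOH gave p = 0.9 at Day 2 and p = 0.2 at Day 4 for *Uap1l1* (adjusted p = 0.9 and 0.4 over 8 tests, n = 3), where 3 libraries against 3 cannot go below 0.1. The lowest p of the 8 was that at Day 4 for *Uap1l1*. On the TPM scale, which divides by this length, its log2 ratio of group means was 0.87 at Day 2 and 2.56 at Day 4. RSEM gave a posterior SD of 0 for the counts of all 4 genes in all 12 libraries, so no read of theirs was divided between genes by estimate.

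A sequence comparison of 31-base words with all other annotated transcripts found no word shared by *Uap1l1*, *Patl2* or *Lrrc75a* and 131 of 841 words (15.6%) of *Gm48377* shared with 7 other genes. The gene with most of them was *Platr15*, a long noncoding RNA of pluripotent cells on chromosome 2, with 68 words. *Platr15* had a log2 fold change of 0.59 (SE 0.25) at Day 2, with a mean of 62.4 normalised counts, under the minimum, and of 1.33 at Day 4 (adjusted p = 2.26e-12, SE 0.18). *Ube2l6* and *Prss35*, which share 23 and 18 words with *Gm48377*, had Day 4 log2 fold changes of 0.24 (adjusted p = 0.221, SE 0.15) and -0.86 (adjusted p = 6.94e-05, SE 0.19). These 3 were named after their values had been seen. Of the other 4, 3 had means below 2 normalised counts, and *1500011B03Rik*, which shares 1 word, had log2 fold changes of -0.11 (adjusted p = 0.613, SE 0.12) at Day 2 and -0.03 (adjusted p = 0.888, SE 0.12) at Day 4.

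In the TEC class, which includes *Gm48377*, the called genes were higher at Day 2 and mostly lower at Day 4. At Day 2, 34 of 94 tested genes of the class were called higher, with a median log2 fold change of 0.28, where 9.17% of all genes tested were called higher and 10.6% lower. None of the class was called lower at Day 2 by DESeq2 (2 at an unadjusted p below 0.05, and 2 by edgeR). At Day 4, 3 of 71 were called higher and 10 lower, with a median log2 fold change of -0.19, where 23.5% of all genes tested were called higher and 21.7% lower. The medians over all genes tested were -0.03 at Day 2 and 0.01 at Day 4. *Gm48377* is itself among the 34 and the 3.

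*Uap1*, the paralog of *Uap1l1*, was 26.6 ± 0.91 TPM (SD, n = 3) with EtOH and 26.7 ± 0.58 with OHT at Day 2, and 24.9 ± 0.67 and 22.6 ± 0.40 at Day 4. At Day 2 this level was several times that of *Uap1l1* with either treatment. At Day 4 *Uap1l1* was 2.20 ± 0.21 TPM (SD, n = 3) with EtOH and 13.0 ± 2.24 with OHT, so with OHT it was nearer to *Uap1* but still below it. The log2 fold change of *Uap1* was -0.09 (adjusted p = 0.274, SE 0.05) at Day 2 and -0.11 (adjusted p = 0.0708, SE 0.05) at Day 4. *Patl1*, the paralog of *Patl2*, had log2 fold changes of 0.11 (adjusted p = 0.388, SE 0.08) and -0.07 (adjusted p = 0.525, SE 0.08). Neither tested paralog was called by DESeq2 on either day (1 had an unadjusted p below 0.05, *Uap1* at Day 4, which edgeR called lower). *Lrrc75b*, the paralog of *Lrrc75a*, was at means of 7.06 and 4.00 normalised counts in the Day 2 and Day 4 comparisons, too low to test.

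Other genes of UDP-GlcNAc metabolism were called in both directions. Of 21 listed genes, all tested, 2 were called higher and 3 lower at Day 2, and 7 higher and 5 lower at Day 4, where 9.17% of all genes tested were called higher and 10.6% lower at Day 2, and 23.5% and 21.7% at Day 4. Their median log2 fold change was -0.01 at Day 2 and 0.01 at Day 4. The called genes with the largest Day 4 changes were *Renbp*, *Nagk*, *Amdhd2* and *Gnpda1*, all higher, and all act in the re-use or breakdown of amino sugars. Since their Day 4 changes named these genes, those values are given without p-values.

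*Renbp*, which interconverts N-acetylmannosamine and N-acetylglucosamine, was 827, 801 and 755 normalised counts with EtOH and 1109, 1128 and 1140 with OHT at Day 2. At Day 4 it was 692, 628 and 630.2 with EtOH and 2017, 1965 and 2070.1 with OHT. The lowest OHT library was above the highest EtOH library at each time, and the log2 fold change was 0.50 (SE 0.07) at Day 2 and 1.63 (SE 0.06) at Day 4. *Renbp* was also the 8th gene in the order that chose *Uap1l1*, so its Day 2 value has no p either.

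*Nagk*, the kinase of free N-acetylglucosamine, had a Day 4 log2 fold change of 0.90 (SE 0.16) and a Day 2 value of 0.33 (adjusted p = 0.302, SE 0.20). *Amdhd2*, which removes the acetyl group from N-acetylglucosamine 6-phosphate, had 0.75 at Day 4 (SE 0.07) and 0.18 at Day 2 (adjusted p = 0.123, SE 0.08). *Gnpda1*, which converts glucosamine 6-phosphate to fructose 6-phosphate, is on the list of genes with a PRDM10 site. *Gnpda1* was called higher on both days, at 0.28 (adjusted p = 2.33e-07, SE 0.05) at Day 2 and 0.62 (SE 0.04) at Day 4. Its paralog *Gnpda2* was called lower on both days, at -0.31 and -0.55.

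Of the 5 genes that make UDP-GlcNAc from fructose 6-phosphate, *Gfpt1*, *Gfpt2*, *Gnpnat1*, *Pgm3* and *Uap1*, only *Gnpnat1*, the glucosamine 6-phosphate acetyltransferase, was called, and it was lower: -0.25 (adjusted p = 6.47e-05, SE 0.05) at Day 2 and -0.22 (adjusted p = 6.02e-05, SE 0.05) at Day 4. The remaining called genes at Day 4 had smaller changes, from 0.13 in *Ogt*, the O-GlcNAc transferase, to 0.28 in *Gpi1* among the higher ones, and from -0.23 in *Nans* to -0.36 in *Alg14* among the lower ones. *Oga*, the enzyme that removes O-GlcNAc (*Mgea5* in the files), is also on the list of genes with a PRDM10 site and was called lower at Day 2, at -0.16.

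**Figure D2:**
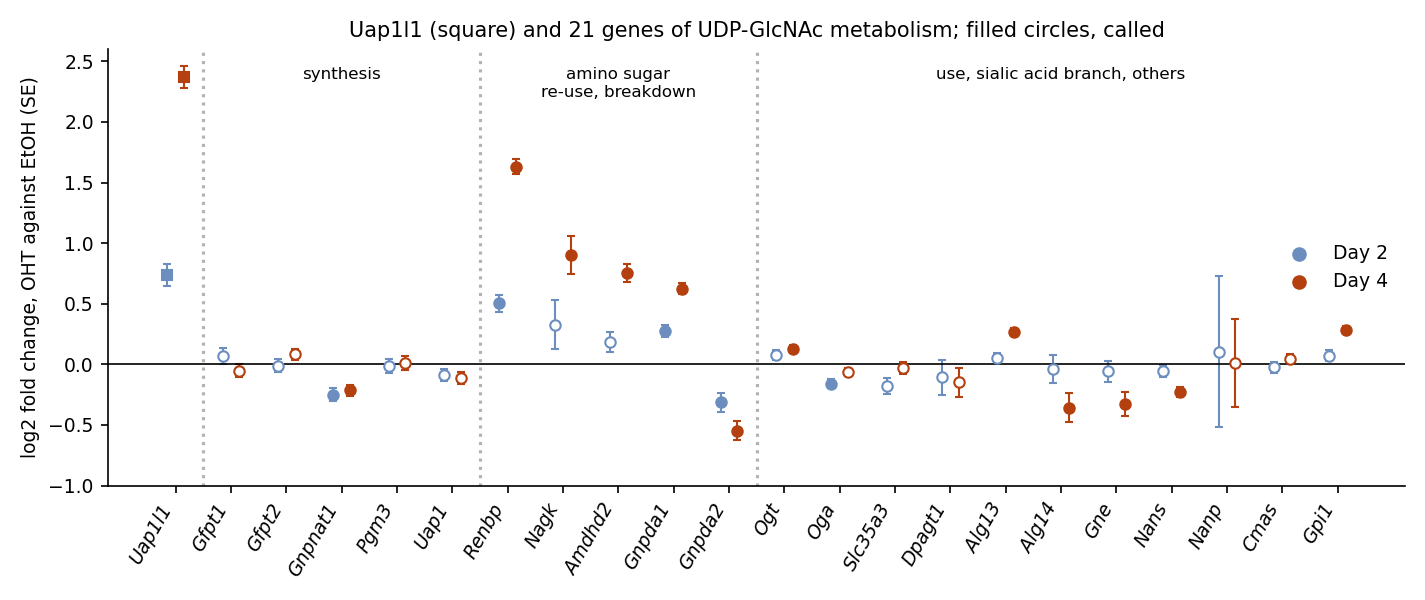
Log2 fold change, OHT against EtOH (vertical axis, bars are SE), of *Uap1l1* (squares, a description) and of 21 genes of UDP-GlcNAc metabolism (circles, filled where called) at Day 2 (blue) and Day 4 (red). *Renbp*, *Nagk*, *Amdhd2* and *Gnpda1* reach 0.62 to 1.63 at Day 4, while *Gnpda2*, drawn in the same group, is at -0.31 at Day 2 and -0.55 at Day 4. The 5 genes of the synthesis route lie between -0.25 and 0.08 on both days. The groups were formed after the values had been seen.

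Genes that act with the PATL1 family in mRNA decay were called in both directions. Of 33 listed genes, all tested, 10 were called higher and 7 lower at Day 2 (median log2 fold change 0.04), and 5 higher and 12 lower at Day 4 (median -0.08). Among all genes tested the shares were 9.17% and 10.6% at Day 2 and 23.5% and 21.7% at Day 4. The largest Day 4 changes were those of *Cnot6*, a deadenylase subunit of the CCR4-NOT complex on the list of genes with a PRDM10 site (-0.77, SE 0.04), *Cnot8*, another deadenylase subunit (0.58, SE 0.04), *Dcp1b*, a decapping cofactor (0.58, SE 0.14), and *Tnrc6b*, a partner of Argonaute (-0.35, SE 0.07). *Tnrc6b* had been called higher at Day 2, at 0.25 (SE 0.07). The Day 2 counts fell when single libraries were left out. Without EtOH replicate 1, 3 genes were called higher and 3 lower. Without EtOH replicate 2, 3 were called higher, and without OHT replicate 3, 4 were. Over all genes tested, fewer were also called at Day 2 when any 1 library was left out.

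The oocyte genes among which *Patl2* is usually listed were mostly near 0. Of 20 listed, 13 had a mean below 10 normalised counts over the 12 libraries and 4 were tested. None of the 4 was called at Day 2 by DESeq2 (1 was higher at an unadjusted p below 0.05, and edgeR called 3 higher). At Day 4 *Ybx2*, a germ cell RNA-binding protein, was called higher at 0.82 (SE 0.16), *Cpeb1*, a regulator of poly(A) tails, at 0.59 (SE 0.19), and *Sohlh2*, an oocyte transcription factor, lower at -0.23 (SE 0.06). *Zp3* had 0.31 at Day 2 and 0.01 at Day 4 and was not called. Of 14 germ cell genes, 12 were tested on each day, with 2 called higher and 2 lower at Day 2 and 3 higher and 4 lower at Day 4. Leaving out any 1 library left 0 or 1 of the germ cell genes higher at Day 2, and leaving out Day 4 EtOH replicate 2 or OHT replicate 3 left 1 oocyte gene higher at Day 4. The shares among all genes tested were 9.17% higher and 10.6% lower at Day 2 and 23.5% and 21.7% at Day 4. The largest Day 4 changes there were in *Tdrd1* (-0.65), *Dazl* (-0.60), *Tdrkh* (-0.60) and *Sycp3* (0.55).

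The 28 annotated genes that overlap the 4 genes or lie within 50 kb of them held 12 tested at Day 2 and 11 at Day 4. At Day 2, 1 was called higher and 2 lower, where 9.17% and 10.6% of all genes tested were called. At Day 4, 6 were called higher and 3 lower, where the shares were 23.5% and 21.7%. *Gm48377* had 2 annotated neighbours, both pseudogenes with no read, so it contributed none of these. Neighbours of the same gene are not independent of each other.

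Around *Uap1l1*, 5 genes were tested at Day 2, none called by DESeq2 (1 at an unadjusted p below 0.05 and also called by edgeR, *Dpp7*), and 4 at Day 4, all called higher. The nearest was *Dpp7*, a peptidase of intracellular vesicles that starts from the same strand 3529 bases beyond the end of *Uap1l1*, at 478, 508 and 514 normalised counts with EtOH and 846, 819 and 795 with OHT at Day 4. The labels did not overlap, and the log2 fold change was 0.71 (adjusted p = 6.95e-17, SE 0.08) against 0.20 (adjusted p = 0.107, SE 0.09) at Day 2. *Sapcd2*, a regulator of spindle orientation that lies upstream on the opposite strand at a distance of 6638 bases, had 0.55 at Day 4 (adjusted p = 3.4e-12, SE 0.07). *Npdc1* (0.57) and *Man1b1* (0.19), an endoplasmic reticulum mannosidase, were also called higher. *Grin1*, an NMDA receptor subunit, was 118 ± 6.13 (SD, n = 3) and 130.5 ± 13.3 normalised counts at Day 2 with EtOH and OHT, and 14.8 ± 4.02 and 21.4 ± 10.9 at Day 4, so it was low on the later day with either treatment.

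*Terb2*, head to head with *Patl2*, was 37.2, 32.6 and 22.3 normalised counts with EtOH and 64.2, 69.2 and 55.8 with OHT at Day 4. These did not overlap, but the gene was under the mean of 100 and counts as not tested. Without that minimum its log2 fold change was 1.04 (adjusted p = 0.00295, SE 0.30) at Day 4 and -0.12 (adjusted p = 0.876, SE 0.35) at Day 2, when *Patl2* was already higher. *B2m*, the light chain of MHC class I, lies within *Patl2* on the opposite strand and shares no exonic base with it. It had 0.17 (adjusted p = 0.379, SE 0.12) at Day 2 and 0.23 (adjusted p = 0.117, SE 0.12) at Day 4. *Trim69*, also within *Patl2*, had means below 1 normalised count. *Spg11*, downstream on the strand of *Patl2*, was called higher at Day 4 (0.32, SE 0.04), and *Sord*, sorbitol dehydrogenase, on both days (0.27 and 0.43).

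*Lrrc75a* was the 1 gene of the set with called neighbours that went the other way. *Lrrc75aos2*, an antisense transcript that lies within *Lrrc75a* (chr11:62605766-62607748, plus strand), was 610.1, 594 and 618 normalised counts with EtOH and 300.3, 338 and 305 with OHT at Day 2, and 389, 390.3 and 379 with EtOH and 128, 95.9 and 123 with OHT at Day 4. It was lower in every OHT library than in every EtOH library of the same day, by a log2 fold change of -0.95 (adjusted p = 3.26e-19, SE 0.10) and -1.74 (adjusted p = 4.61e-34, SE 0.14). The difference between the days was itself called (-0.79, SE 0.15, DESeq2 adjusted p = 1.71e-06), as were 32.3% of all genes tested for it. *Lrrc75a* and *Lrrc75aos2* share 86 exonic bases of 2089 and 1227. The kit marks the strand, but whether the counting used it is not given in the sources used here. The counts of both genes had a posterior SD of 0.

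*2410006H16Rik*, a noncoding transcript whose introns or exons hold the small nucleolar RNAs *Snord49b*, *Snord49a* and *Snord65*, lies 76 bases beyond the end of *Lrrc75a* on the opposite strand. It was 2417, 2445 and 2439 normalised counts with EtOH and 1073, 1077 and 1048 with OHT at Day 2, and 1433, 1356 and 1394 with EtOH and 694, 715 and 687 with OHT at Day 4. Its log2 fold change was -1.19 (adjusted p = 9.18e-92, SE 0.06) at Day 2 and -0.999 (adjusted p = 2.52e-49, SE 0.07) at Day 4, with a called difference of 0.19 between the days (adjusted p = 0.0332, SE 0.07). *2410006H16Rik* and *Lrrc75aos2* are both on the list of genes with a PRDM10 site, and the site listed for both is at the start of *2410006H16Rik*, past the end of *Lrrc75a*. The study assigned sites to genes by a window around the gene body that reached farther upstream than downstream. *Lrrc75a*, whose end faces the site, is thus not on that list although the gene next to its end is. This difference in listing is one of position and does not measure binding.

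The 250 bases before the start of *2410006H16Rik* are shown as the DNA at that listed site, 5′ to 3′ on the plus strand (RefSeq promoter table, GRCm38.p6), with matches to GGGCGG on either strand in capitals.
2410006H16Rik upstream, chr11:62602627-62602876: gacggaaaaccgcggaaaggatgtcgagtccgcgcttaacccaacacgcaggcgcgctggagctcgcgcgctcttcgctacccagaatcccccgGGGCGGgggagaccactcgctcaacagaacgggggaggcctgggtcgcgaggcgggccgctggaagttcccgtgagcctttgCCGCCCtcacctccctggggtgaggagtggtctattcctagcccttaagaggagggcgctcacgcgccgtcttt
This stretch was 66.4% G and C and held 2 matches to GGGCGG and none to the other 4 motifs. *Trpv2*, a cation channel gene farther along, was called lower at Day 4 (-0.44, SE 0.16, DESeq2 adjusted p = 0.0161) and had 0.10 (SE 0.16) at Day 2. *Mmgt2*, which starts head to head with *Lrrc75a* at a distance of 140 bases, had 0.12 (adjusted p = 0.684, SE 0.15) and -0.03 (adjusted p = 0.932, SE 0.15) and was not called on either day.

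**Figure D3:**
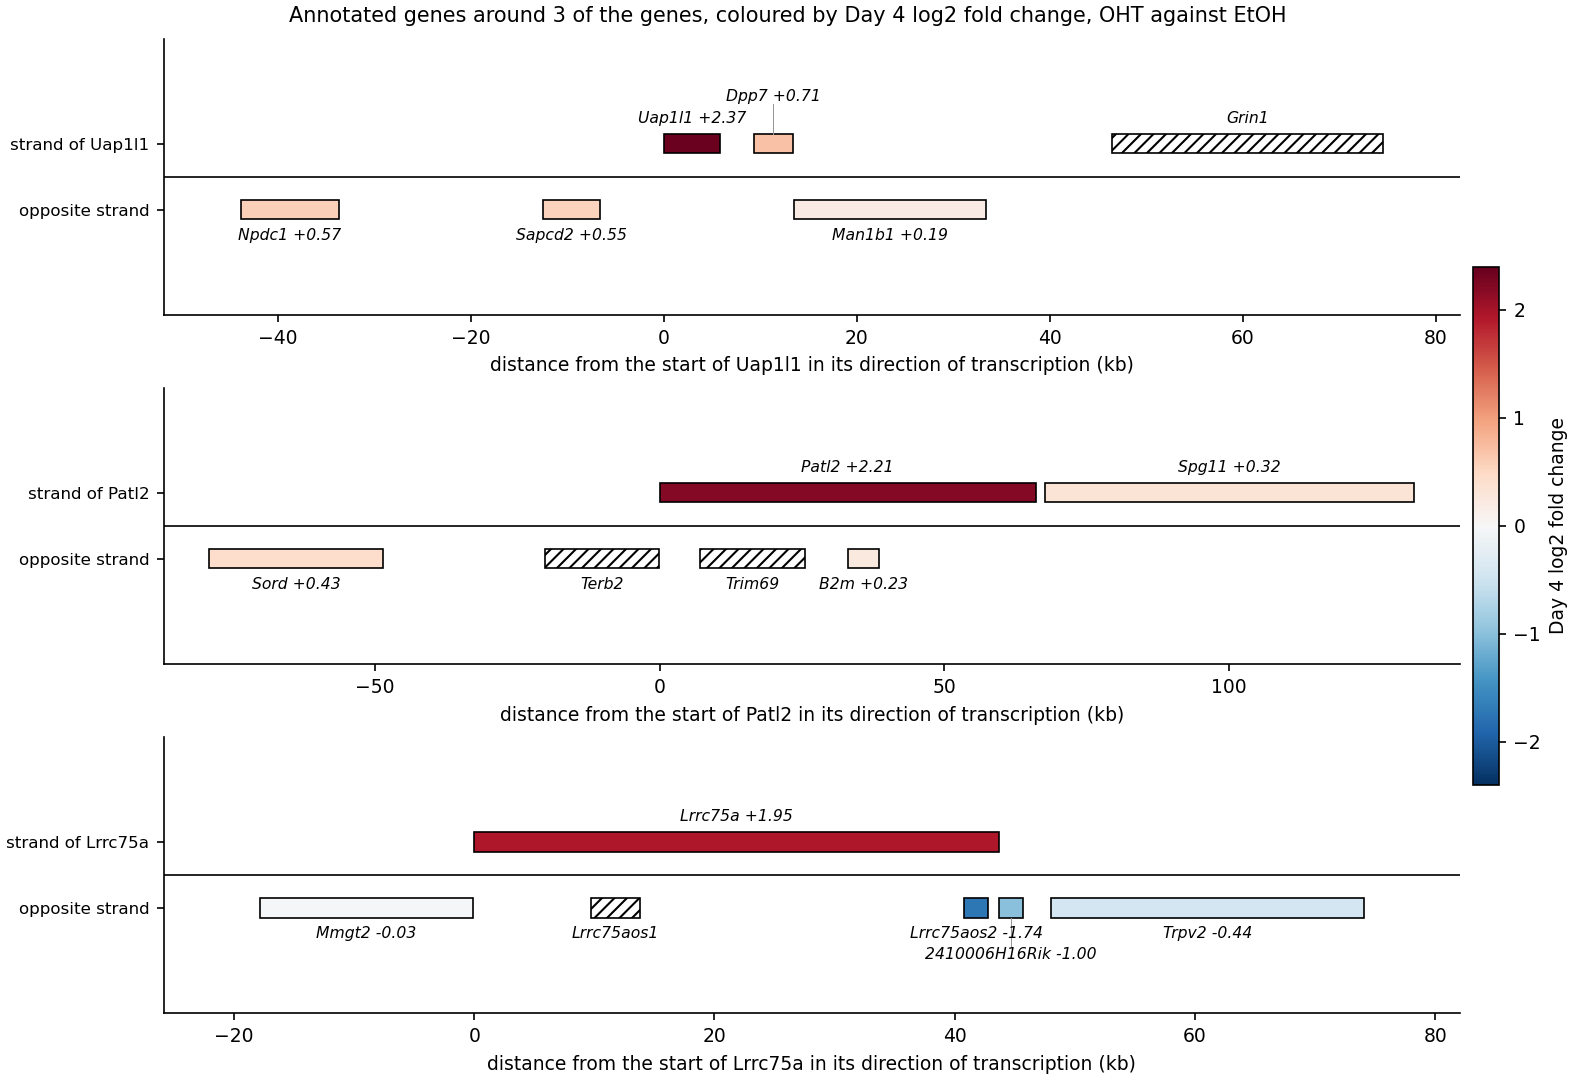
Positions of annotated genes around *Uap1l1*, *Patl2* and *Lrrc75a* (horizontal axis, distance in kb from the start of the named gene along its own direction), above the line where they share its strand and below where they do not. Colours and printed numbers are Day 4 log2 fold changes, OHT against EtOH, and hatched genes were under the mean of 100 at Day 4. The tested genes near *Uap1l1* and *Patl2* are at 0.19 or more, and *Lrrc75aos2* and *2410006H16Rik*, at the far end of *Lrrc75a*, are at -1.74 and -0.999.

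The 4 genes next in the order that chose the set were *Fabp3*, a fatty acid binding protein, *Ahnak2*, a large scaffold protein, *Apoe*, the lipid carrier, and *Renbp*. *Fabp3* had a Day 4 log2 fold change of 1.81 (SE 0.04) just below the 1.83 of *Gm48377*, so the border of the set lies within the error of either value. *Ahnak2* had 1.79 (SE 0.14), *Apoe* 1.66 (SE 0.03) and *Renbp* 1.63 (SE 0.06). The levels of *Fabp3* and *Apoe* were far higher than those of the set: *Fabp3* had means of 2778 and 9788 normalised counts and *Apoe* of 6106 and 19353 with EtOH and OHT at Day 4.

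The genes whose levels followed each of the 4 most closely over the 12 libraries were different for the pairs *Uap1l1* with *Patl2* and *Lrrc75a* with *Gm48377*. Likeness was Pearson's r of log2(normalised count + 1), a description over 12 libraries that share treatment and day and fall into 4 groups. For *Uap1l1* the first 5 were *Apoe* (r = 0.998), *Fabp3* (0.997), *Icam1* (0.991), *Hexa* (0.989) and *Cnot8* (0.988). For *Patl2* they were *Icam1* (r = 0.982), *Rragd* (0.981), *Fabp3* (0.980), *Arl4c* (0.979) and *Usf2* (0.978), of which *Icam1* and *Fabp3* were also near *Uap1l1*. For *Lrrc75a* they were *Top3b* (r = 0.993), *Six4* (0.987), *Gprc5c* (0.986), *Socs2* (0.985) and *Amotl1* (0.984), and for *Gm48377* 4 of the first 5 were *Ap3d1* (r = 0.991), *Sptbn4* (0.990), *Mybl2* (0.990) and *Col18a1* (0.983). *Socs2* is on the list of genes with a PRDM10 site. Within the set, r was 0.975 between *Uap1l1* and *Patl2* and 0.972 between *Lrrc75a* and *Gm48377*, and 0.694 to 0.848 for the other pairs.

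**Figure D4:**
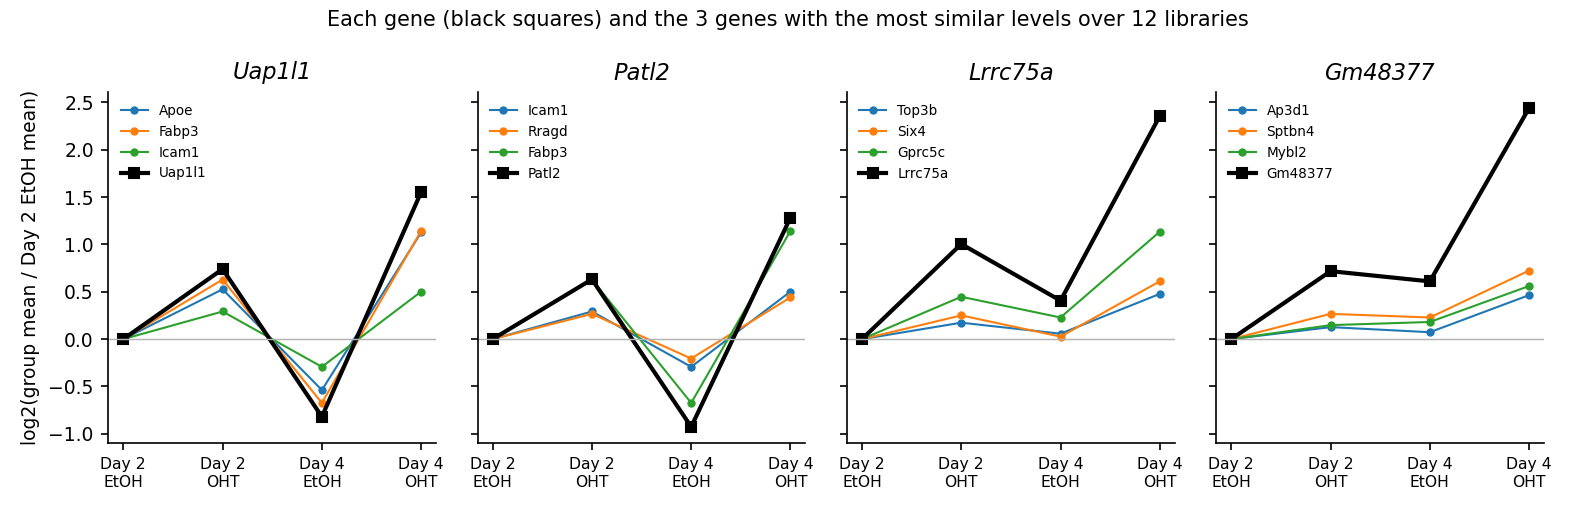
Log2 of the group mean over the Day 2 EtOH mean (vertical axis) in the 4 groups for each gene of the set (black squares) and for the 3 genes most like it over the 12 libraries (coloured circles). The lines of *Uap1l1* and *Patl2* and their like genes dip below 0 in the Day 4 EtOH group, and those of *Lrrc75a* and *Gm48377* do not. Each gene of the set has the highest Day 4 OHT value of its panel, which follows in part from its choice by the Day 4 change.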

How the data were processed

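RNA-seq libraries of 12 mESC samples (4 groups, 3 libraries each) were analysed from the gene files of the authors, who mapped paired reads to GRCm38.p6 with STAR 2.6.0c and quantified genes against GENCODE with RSEM, 1 library at a time. The deposited expected counts are estimated read pairs per gene, not normalised, and the deposited TPM values are scaled by the authors for effective length and library. The tables of the authors' own DESeq2 1.22.2 comparisons (mean normalised count signal, log2 fold change, p-value) were deposited too, and only their gene identifiers and symbols were read here. Expected counts were rounded and tested with DESeq2 1.42.0 (R 4.3.3), each day on its own, a gene being called at an adjusted p (Benjamini-Hochberg) under 0.05 where its normalised counts averaged over 100. The difference between the days was the treatment by day term of a fit to all 12 libraries. Normalised counts printed per library use size factors over all 12 libraries.

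The 4 genes were matched by symbol, 1 row each. The genes, the gene lists and the tests were chosen with earlier results of these data known, and the UDP-GlcNAc genes were grouped by step after their values had been seen. Named genes were the 4 genes, their paralogs, tested neighbours within 50 kb and any gene overlapping a gene of the set, the 5 most alike by Pearson correlation (1 of them is not reported here), the 4 next in the choosing order, up to 4 called genes of a list with the largest Day 4 changes, and *Prdm10*; others were named after their values had been seen. Positions, exons and transcript sequences came from a later GENCODE release of the same build, and promoter sequences from RefSeq.

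Alternatives were edgeR 4.0.16 (quasi-likelihood test), TMM or total count scaling, effective lengths as offsets, the replicate number as a block, all 12 libraries in 1 fit, no minimum mean, each library left out in turn, TPM for levels and Spearman correlation for likeness. Replicate pairs differed by 3.01 to 10.2 times the counting noise (chi-square per gene over genes with at least 50 counts), so none was a duplicate. The fits were tested on simulated counts with known changes.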

Additional observations from a re-analysis of the deposited data

Results flagged for a closer look

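The treatment by day term of the DESeq2 fit to all 12 libraries compared the OHT against EtOH difference between Day 2 and Day 4. Of the 16 named genes that were not chosen by their values, 9 passed its threshold, where 32.3% of all genes tested passed. Those 16 include neighbours of the same gene, which are not independent of each other. With the genes chosen by their values, 26 of the 38 that the naming rule takes beside the like genes passed. That count follows in part from the choice and is not set against the share of all genes. For *Uap1l1* the Day 4 log2 difference was larger than that at Day 2 by 1.63 (SE 0.12), for *Patl2* by 1.58 (SE 0.23), for *Lrrc75a* by 0.94 (SE 0.16) and for *Gm48377* by 1.11 (SE 0.18). These 4 were chosen by their Day 4 values, so the sizes are a description and have no p. The mean vehicle level of *Uap1l1* and *Patl2* was lower at Day 4 than at Day 2, and that of *Lrrc75a* and *Gm48377* was higher.

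Of the genes near *Uap1l1*, *Dpp7* differed by 0.51 (SE 0.11, adjusted p = 2.45e-05), *Sapcd2* by 0.49 (SE 0.10, adjusted p = 5.76e-06), *Npdc1* by 0.48 (SE 0.19, adjusted p = 0.0484) and *Man1b1* by 0.22 (SE 0.06, adjusted p = 0.00255). *Spg11*, next to *Patl2*, differed by 0.24 (SE 0.06, adjusted p = 0.000248). Near *Lrrc75a*, the term was -0.79 for *Lrrc75aos2* (SE 0.15, adjusted p = 1.71e-06), 0.19 for *2410006H16Rik* (SE 0.07, adjusted p = 0.0332) and -0.54 for *Trpv2* (SE 0.19, adjusted p = 0.0221). *Lrrc75aos2* was thus further below vehicle at Day 4 than at Day 2, and *2410006H16Rik* slightly less so. For *Prdm10* it was -0.23 (SE 0.08, adjusted p = 0.0224), a smaller difference at Day 4.

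The remaining genes were named for their Day 4 changes, so their values too have no p. Of the amino sugar genes, *Renbp* differed by 1.13 (SE 0.08), *Amdhd2* by 0.58 (SE 0.10), *Nagk* by 0.58 (SE 0.23) and *Gnpda1* by 0.35 (SE 0.05), each with the larger value at Day 4. The genes next in the choosing order differed by 1.19 for *Fabp3* (SE 0.06), 1.14 for *Apoe* (SE 0.05) and 0.88 for *Ahnak2* (SE 0.17). In the mRNA decay list *Cnot8* differed by 0.43 (SE 0.05), *Cnot6* by -0.32 (SE 0.07) and *Tnrc6b* by -0.60 (SE 0.11). Of the oocyte and germ cell genes, *Ybx2* differed by 0.55 (SE 0.19), *Sohlh2* by -0.25 (SE 0.09) and *Tdrkh* by -0.64 (SE 0.19). Groups of 3 libraries were not searched for outlying samples.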

How the results depend on the processing

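The log2 fold changes of the 4 genes kept their direction on both days under every alternative run, from 0.57 to 1.05 at Day 2 and from 1.79 to 2.59 at Day 4. They moved by more than the spread between replicates only for *Uap1l1*, to 0.87 at Day 2 and 2.56 at Day 4 with TPM and to 2.59 at Day 4 with effective lengths as offsets. Its effective length ran from 1719 to 2696 bases over the libraries. *Sapcd2* at Day 2 turned from 0.06 to -0.042 with effective lengths as offsets and was not called in either. Neighbours called higher at Day 2 were 1, and 2 with all 12 libraries in 1 fit or with edgeR. *Dpp7* and *Amdhd2* at Day 2 were called in those same fits and not otherwise. Of 1072 values recomputed, 992 stayed within their limits. Most of the 75 that moved were counts of a few genes in the marker, mRNA decay and paralog lists. The count of all genes higher at Day 2 was 1068 and that of all genes lower at Day 2 was 1238. Leaving out 1 library gave 615 to 1052 and 586 to 1122, with 615 and 586 without Day 2 EtOH replicate 1 and 697 and 710 without Day 2 EtOH replicate 2. Scaling by total counts gave 638 lower. With the replicate number as a block the counts were 658 higher and 659 lower. Deviations of same-numbered libraries correlated at -0.23 to 0.12, with 1 of 6 best matched to its own number. With 3 libraries in each group this check cannot decide whether the numbers pair the libraries. The cause of these shifts was not tested. Ranking likeness by Spearman correlation shared 2 of the first 5 genes for *Uap1l1* and none of 5 for the other 3, so the named like genes depend on the measure. Depth limits *Patl2* and *Gm48377* most, since their lowest libraries held 53 and 90 expected counts.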
